A study of Bos indicus and Bos taurus with 17 samples.

Results

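B cell and plasma cell genes were followed in RNA from cow milk cells, as a list of 9 genes that mark the B cell lineage: CD79A, CD79B, MS4A1, BLK, PAX5, TNFRSF17, MZB1, IRF4 and POU2AF1. Each gene was looked up by its symbol among the 21631 distinct gene names of the series. Of the 9 genes, 8 were found, each in a single entry, and TNFRSF17 was not found, so that no value is given for it. The cells were mammary epithelial cells of Kashmiri cattle, a local breed of Kashmir, and of Jersey cattle, a dairy breed, captured from fresh milk with magnetic beads that carried an antibody against the epithelial keratin KRT18. Milk was taken on day 15 (D15), D90 and D250 of lactation, and the labels give March as the month of the D15 samples, July for D90 and December for D250. The labels name 17 samples, 3 for each breed and day except Jersey at D90, with 2. Day and month can therefore not be told apart. The labels put each sample in lactation 2 or 3, while the methods of the study name the third lactation for all cows. All 3 Kashmiri samples at D90 and all 3 Jersey samples at D250 were labelled lactation 2, so that lactation number and group are mixed as well.

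Expression is given as the authors' FPKM, a read level scaled by transcript length and library size, with 1 value per group, 6 in all. Where 3 values of a breed are listed, they stand in the order D15, D90 and D250. Values per cow were not analysed here, so that there are no replicates, no error and no test between groups. A single cow could carry a group value, and the read depth behind each value is unknown. A difference is therefore described by its size, and "past the limit" means at least 1 FPKM in either group together with an absolute log2 ratio of at least 2 after adding 1 FPKM to both values. The share of all genes past the same limit is given beside the first count of members in each comparison.

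B cells recognise antigen through surface immunoglobulin, which signals through the CD79A and CD79B chains and Src family kinases such as BLK. PAX5 keeps B cells committed to their lineage, MS4A1 encodes the surface protein CD20, and POU2AF1 is a coactivator at immunoglobulin promoters. On antigen contact some B cells become plasma cells, a step that needs IRF4, and plasma cells use MZB1 in the assembly of antibodies. In the mammary gland, plasma cells under the epithelium supply antibodies that the epithelium carries into milk, and white blood cells, B cells among them, also pass into milk.

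The labelled cell type was checked against marker genes. KRT18, the keratin used for the capture, had 51.3, 9.13 and 11.5 FPKM in Kashmiri and 33.7, 1.59 and 4.51 FPKM in Jersey cattle. PTPRC, which encodes the leucocyte antigen CD45, had 68.7, 166 and 87.9 FPKM in Kashmiri and 60.0, 120 and 320 FPKM in Jersey cattle. PTPRC was thus above KRT18 in every group. The order was the opposite for the epithelial genes KRT19 and ELF5, named after their values were seen, which were above PTPRC in each group but Jersey at D90, where they had 38.2 and 12.6 FPKM. RNA of both epithelium and leucocytes was therefore present. In such bulk samples, fewer cells of a type and less RNA per cell cannot be told apart. The study also compared captured with uncaptured milk cells by quantitative PCR at D90. KRT18 and CSN2 were higher, and LSP1, HBA and CD18 lower, in the captured cells. The paper proposes that contamination by other cell types was minimal. Uncaptured cells were not compared here.

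CD79A and CD79B encode the paired signalling chains of the B cell receptor. CD79A had 8.03, 42.5 and 9.77 FPKM in Kashmiri and 6.93, 4.22 and 2.22 FPKM in Jersey cattle. Kashmiri at D90 stood far above the other 5 groups and was the highest of all member values, while in Jersey cattle at D90 and D250 CD79A was below IRF4. At its highest, CD79A was above 89.9% of the names expressed in that group (over 0.01 FPKM), and at its lowest, in Jersey at D250, above 42.1%.

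CD79B had 1.54, 11.8 and 6.56 FPKM in Kashmiri and 5.81, 2.46 and 1.78 FPKM in Jersey cattle. Its highest value was also in Kashmiri at D90, but its lowest was in Kashmiri at D15. The chains pair in the receptor, yet the FPKM of CD79A over that of CD79B, a comparison per length, ran from 1.19 in Jersey at D15 to 5.22 in Kashmiri at D15. The ratio was 3.59 in Kashmiri at D90, 1.49 in Kashmiri at D250, 1.71 in Jersey at D90 and 1.25 in Jersey at D250.

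MS4A1 had 2.23, 7.50 and 6.72 FPKM in Kashmiri and 3.72, 1.86 and 1.29 FPKM in Jersey cattle. In Kashmiri cattle D90 and D250 were close to each other and D15 was lower, while in Jersey cattle D15 was the highest day. BLK, the receptor's Src family kinase, had 1.08, 1.96 and 1.35 FPKM in Kashmiri and 2.34, 1.53 and 0.464 FPKM in Jersey cattle. BLK was the member whose highest value was in Jersey at D15, and its levels in Kashmiri cattle lay within 1.81-fold of each other. With FPKM rescaled by the upper quartile its highest value moved to Kashmiri at D90.

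Of the transcriptional regulators, PAX5 had 0.105, 0.286 and 0.477 FPKM in Kashmiri and 0.184, 0.0962 and 0.190 FPKM in Jersey cattle, under 1 FPKM in every group. POU2AF1 had 0.379, 2.57 and 2.19 FPKM in Kashmiri and 1.09, 0.686 and 0.491 FPKM in Jersey cattle, and so reached 1 FPKM in 3 of the 6 groups. Its order over the groups was the same as that of CD79B, with Kashmiri at D90 the highest and Kashmiri at D15 the lowest. IRF4, which T cells, macrophages and dendritic cells can also express, had 4.15, 12.2 and 3.56 FPKM in Kashmiri and 3.06, 7.69 and 3.14 FPKM in Jersey cattle. IRF4 was the member with its highest day at D90 in both breeds.

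MZB1, the chaperone partner of antibody synthesis in plasma cells, had 0.780, 3.92 and 0.279 FPKM in Kashmiri and 0.739, 0.127 and 0.166 FPKM in Jersey cattle. Kashmiri at D90 was its single value above 1 FPKM. It was 30.8-fold above the lowest group, Jersey at D90, the widest range of the 8 members.

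Over the 8 members and 6 groups, 33 of 48 values were at 1 FPKM or more, 15 were under it and 0 were listed at 0. CD79A, CD79B, MS4A1 and IRF4 were at 1 FPKM or more in every group, while BLK, MZB1 and POU2AF1 were under 1 FPKM in some groups and PAX5 in all. By group, 5, 7 and 6 members reached 1 FPKM in Kashmiri and 6, 5 and 4 in Jersey cattle. Kashmiri at D90 held the highest value of 6 members (CD79A, CD79B, MS4A1, MZB1, IRF4 and POU2AF1). When values were scaled to the sum over all named genes but the milk protein genes, the highest values of MS4A1 and POU2AF1 moved to Kashmiri at D250, which left 4 members. With the upper quartile as the scale, the number was 7.

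**Figure D1:**
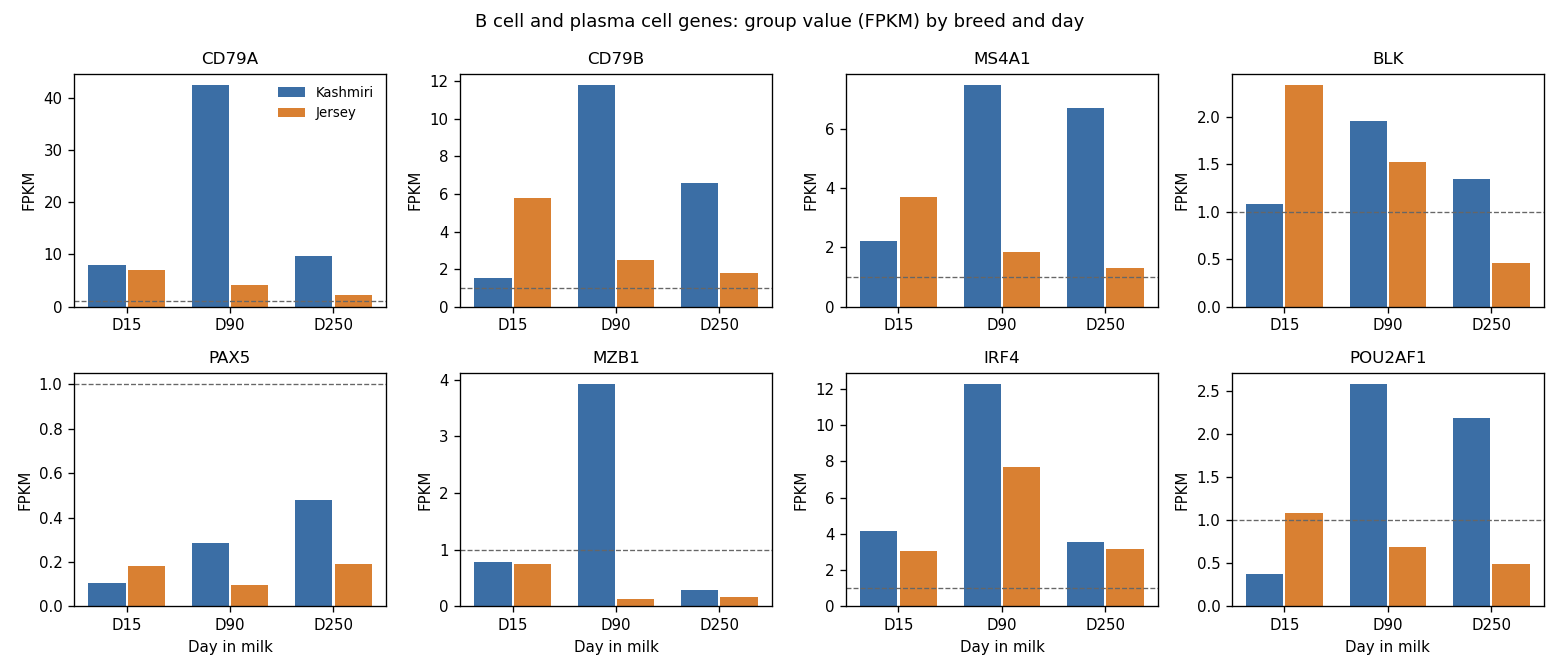
Each panel plots the authors' group value (FPKM, from 0, with its own axis) of one gene against the day in milk, in blue for Kashmiri and orange for Jersey cattle, with 1 value per group and a dashed line at 1 FPKM. Kashmiri at D90 is the highest bar for 6 of the 8 genes, BLK is highest in Jersey at D15, and PAX5 stays under the line throughout.

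The first comparison asked how the genes differ between early and mid lactation. In Kashmiri cattle, all 8 members found had a higher FPKM at D90 than at D15, and CD79A was 5.29-fold and CD79B 7.69-fold higher. These were the 2 of 7 members tested that passed the limit, with log2 ratios of 2.27 and 2.34, where 7.5% of 11297 genes passed it in either direction and 2.34% upwards. POU2AF1 was 6.79-fold and MZB1 5.02-fold higher, but their levels at D15 were under 1 FPKM and their log2 ratios with the pseudocount were 1.37 and 1.47. They entered the count through D90 alone. The smallest ratio among the tested members was that of BLK, at 1.81-fold. The median log2 ratio of the 7 members was 1.40, against -0.01 for all genes tested.

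In Jersey cattle the same interval looked different. At D90, 7 of the 8 members found had a lower FPKM than at D15, and IRF4 was 2.51-fold higher. CD79B was 2.36-fold, MS4A1 2.00-fold, CD79A 1.64-fold, POU2AF1 1.58-fold and BLK 1.53-fold lower. None of the 6 members tested passed the limit (0 of 6), against 6.76% of all 11080 genes tested. Their median log2 ratio was -0.50, and that of all genes -0.07. The breeds therefore went apart between D15 and D90 for 7 members and together for IRF4, with no replicate to test the difference. The 7 include PAX5, under 1 FPKM throughout, and MZB1, under 1 FPKM on both days in Jersey cattle. Among the 6 members that reached 1 FPKM in both breeds, 5 went apart. The share of all genes that went apart is not given here.

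T cell markers split between the breeds in the same way over this interval. Of 12 T and NK cell markers, 11 were higher at D90 in Kashmiri and lower in Jersey cattle, and 1 was higher in both. The macrophage markers did not do so, with 7 of 8 higher in both breeds and 1 lower in both. Of 6 neutrophil markers, 4 were higher in both and 2 higher in Kashmiri and lower in Jersey cattle. All 10 epithelial markers with a value above 0 in the 4 groups were lower at D90 in both breeds. This leaves out CSN3 and LALBA. CSN3 was listed at 0 in Kashmiri cattle at D90. LALBA was listed at 0 at D15 and had 12933 FPKM in Kashmiri and 297 FPKM in Jersey cattle at D90. The study itself reports high FPKM of both genes on all days in both breeds. No direction was therefore read from these zeros. The part of these other cell types in the values of the 8 members was not tested.

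**Figure D2:**
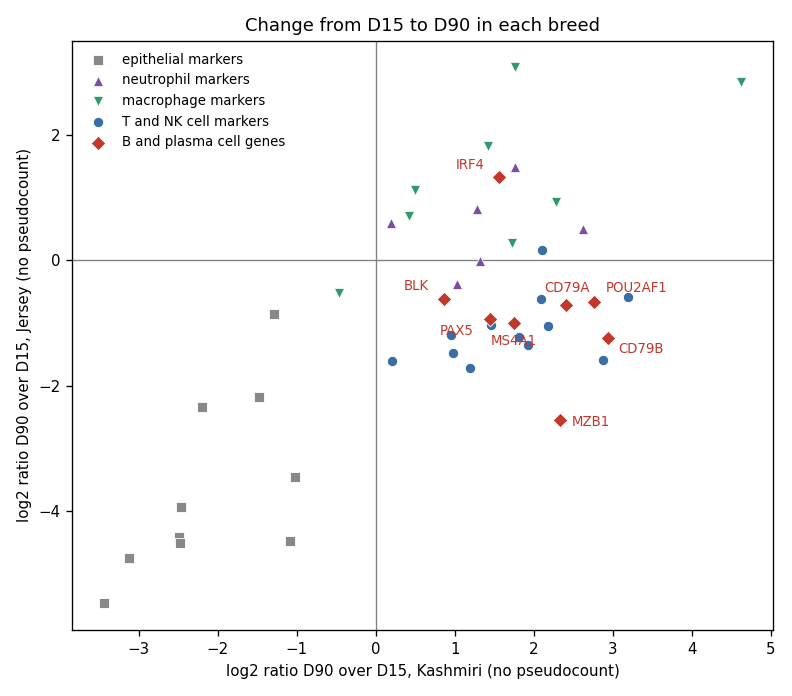
Each point is a gene, with the log2 ratio of its group values at D90 over D15 (no pseudocount) in Kashmiri cattle on the horizontal axis and in Jersey cattle on the vertical axis, and colour and shape give the list. The B and plasma cell genes (red diamonds, named) lie with the T and NK cell markers at the lower right, higher at D90 in Kashmiri and lower in Jersey cattle, except IRF4, which lies among macrophage and neutrophil markers.

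From mid to late lactation, CD79A was the member that stood out in Kashmiri cattle. It was 4.35-fold lower at D250 than at D90, a log2 ratio of -2.01 and the 1 of 7 members past the limit, where 1.98% of 11414 genes passed in either direction and 1.12% downwards. MZB1 was 14.0-fold lower, from 3.92 to 0.279 FPKM, with a log2 ratio of -1.94 after the pseudocount, and IRF4 was 3.44-fold lower. CD79B was 1.80-fold lower. MS4A1 and POU2AF1 differed little, at 1.12-fold and 1.18-fold lower, and their direction turned under the scale of the summed FPKM, as did that of BLK, at 1.46-fold lower. CD79A had a log2 ratio of -1.36 with that scale and no longer passed the limit. The median log2 ratio of the 7 members was -0.76, against 0.03 for all genes.

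In Jersey cattle between D90 and D250, BLK was 3.30-fold, IRF4 2.45-fold and CD79A 1.90-fold lower at D250. MS4A1 was 1.44-fold and CD79B 1.39-fold lower. PAX5 and MZB1 were higher, but under 1 FPKM on both days, and the direction of MZB1 turned with FPKM rescaled to the sum. Of the 5 members tested 0 passed the limit, against 4.18% of 10955 genes. Their median log2 ratio was -0.70, and that of all genes 0.15.

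Early and late lactation were set side by side last. In Kashmiri cattle POU2AF1 was 5.76-fold, CD79B 4.27-fold and MS4A1 3.02-fold higher at D250 than at D15, while CD79A and BLK were 1.22-fold and 1.24-fold higher. IRF4 was 1.17-fold lower and turned to higher with both other scales. None of the 6 members tested passed the limit (0 of 6), against 4.05% of 11487 genes, and their median log2 ratio was 0.73. The median of all genes was -0.04, and it shifted by 0.85 after rescaling to the sum, the largest shift among the 9 comparisons. Relative to all genes the members' median was 0.77, and 0.65 with that rescaling.

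In Jersey cattle, the members of the receptor and its kinase were lower late than early. BLK was 5.04-fold, CD79B 3.27-fold, CD79A 3.12-fold and MS4A1 2.88-fold lower, and POU2AF1 was 2.21-fold lower. IRF4 had 3.06 FPKM at D15 and 3.14 FPKM at D250, a ratio of 1.03 whose direction depended on the scale. None of the 6 members tested passed the limit (0 of 6), while 12.6% of 11320 genes did. The median log2 ratio of the members was -1.12, against 0.07 for all genes. The comparisons of D90 and of D250 with D15 share the D15 value, and are not independent of each other.

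Between the breeds, several members differed in direction between D15 and the later days. At D15, CD79B was 3.78-fold, POU2AF1 2.86-fold, BLK 2.16-fold and MS4A1 1.67-fold higher in Jersey than in Kashmiri cattle. CD79A was 1.16-fold lower in Jersey cattle, but slightly higher under the sum scale (log2 ratio 0.16 with the pseudocount). IRF4 was 1.35-fold lower in Jersey cattle, and lower on all 3 scales. Of the 6 members tested 0 passed the limit, and 8.57% of 11202 genes did.

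At D90, all 8 members found were lower in Jersey than in Kashmiri cattle, also with both other scales, though BLK by a log2 ratio of only -0.01 with the sum. CD79A was 10.1-fold lower (log2 ratio -3.06) and MZB1 30.8-fold lower (log2 ratio -2.13), and these were the 2 of 7 members past the limit. Over all 11209 genes tested, 11.7% passed it in either direction and 5.17% downwards. CD79B was 4.80-fold, MS4A1 4.04-fold and POU2AF1 3.75-fold lower in Jersey cattle. IRF4 and BLK differed least, at 1.59-fold and 1.28-fold. The median log2 ratio of the 7 members was -1.57, and that of all genes -0.03.

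At D250, all 8 members found were again lower in Jersey cattle on each of the 3 scales. MS4A1 was 5.21-fold, POU2AF1 4.45-fold, CD79A 4.40-fold and CD79B 3.70-fold lower, and IRF4 1.13-fold. With the pseudocount, the largest log2 ratio was that of MS4A1, at -1.75, so that 0 of 6 members passed the limit, against 12.3% of 11642 genes. With FPKM rescaled to the sum 3 members passed, and with the upper quartile 2. Relative to the median of all genes, the median of the members was -1.17 as deposited, -1.10 with the sum and -1.08 with the upper quartile.

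**Figure D3:**
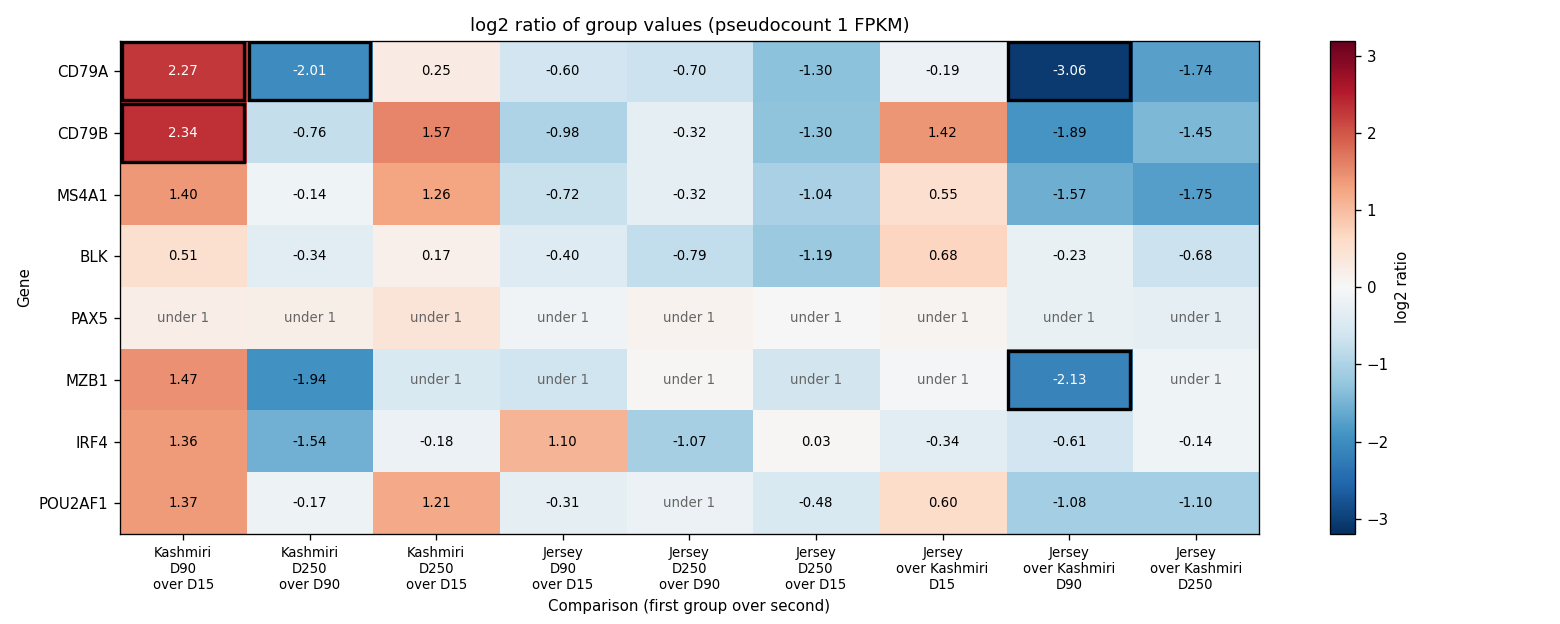
The colour and number of each cell give the log2 ratio of the group values of a gene (rows) in a comparison (columns), after adding 1 FPKM to both, with black frames for ratios of at least 2 in either direction and "under 1" where both values are below 1 FPKM. In Kashmiri cattle D90 over D15 is red and D250 over D90 blue, the numbered cells of the Jersey columns are blue except for IRF4 at D90 and D250 over D15, and the columns that set Jersey over Kashmiri are blue at D90 and D250.

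The level of B cell genes was then set against that of T cells within each group, a ratio that no scaling between groups can change. The summed FPKM of the 8 members was 18.3, 82.8 and 30.9 in Kashmiri and 23.9, 18.7 and 9.74 in Jersey cattle. The 12 T and NK cell markers summed to 531, 1971 and 469 FPKM in Kashmiri and 357, 200.4 and 123 FPKM in Jersey cattle. The sum of the members was thus far below that of the longer T and NK list in every group. This does not hold gene by gene. In Jersey at D90, IRF4 and CD79A, at 7.69 and 4.22 FPKM, were above CD8A, at 3.53 FPKM. As a share of the T and NK sum, the members stood at 3.45%, 4.20% and 6.58% in Kashmiri and at 6.69%, 9.32% and 7.92% in Jersey cattle.

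The share ran over 2.70-fold, while the members' own sum ran over 8.50-fold and the T and NK sum over 16.0-fold. IRF4, at 7.69 FPKM, made up a large part of the sum in Jersey cattle at D90. With only CD79A, CD79B, MS4A1, BLK and PAX5, the share was 2.45%, 3.25% and 5.30% in Kashmiri and 5.32%, 5.08% and 4.83% in Jersey cattle. Kashmiri at D90, which had the highest level of most members, thus had the second lowest share of both kinds.

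**Figure D4:**
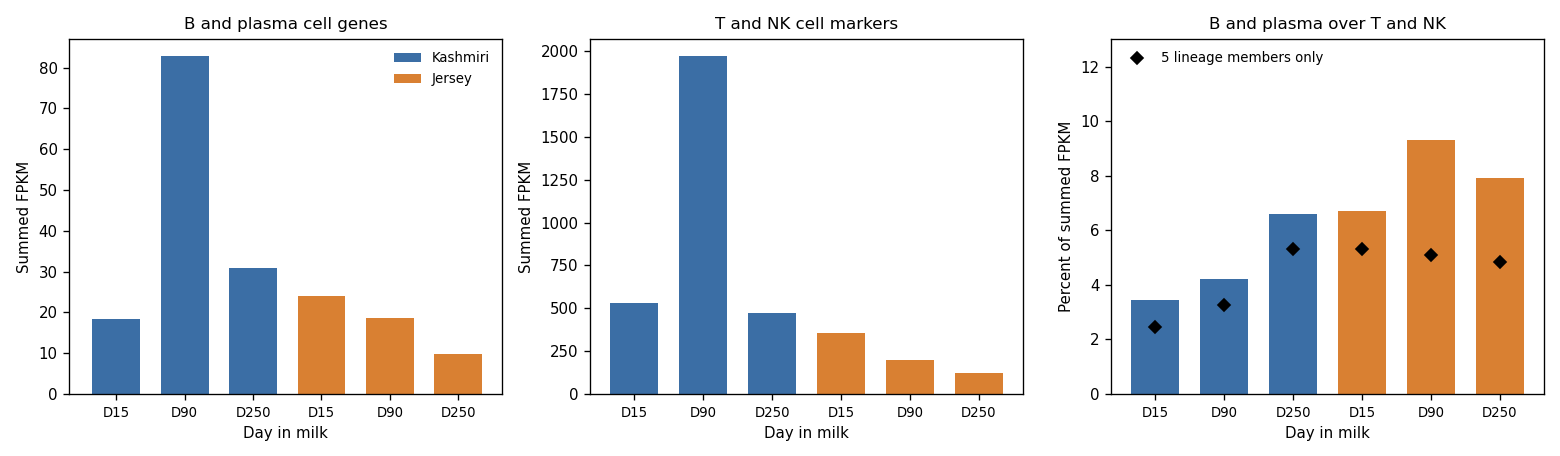
Bars give, for each group (blue for Kashmiri, orange for Jersey, by day in milk), the summed FPKM of the 8 B and plasma cell genes, the summed FPKM of the 12 T and NK cell markers and the first as a percentage of the second, with diamonds for CD79A, CD79B, MS4A1, BLK and PAX5 alone. Both sums are highest in Kashmiri at D90, and the percentage is lowest in Kashmiri at D15.

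Against CD3E, a chain of the T cell receptor complex, CD79A kept the narrowest range of the members. Its FPKM was 5.51%, 6.44% and 7.23% of that of CD3E in Kashmiri and 10.6%, 13.3% and 11.4% in Jersey cattle, a range of 2.42-fold where CD79A itself ranged over 19.1-fold. CD79B ran from 1.06% to 9.10% of CD3E and MS4A1 from 1.14% to 6.61%, with both under 2% in Kashmiri at D15 and D90. IRF4 ran from 1.86% of CD3E in Kashmiri at D90 to 24.3% in Jersey at D90. CD79A and CD3E had a Pearson r of 0.97 on log2(FPKM + 1) over the 6 groups, and CD79B and CD3E one of 0.71. Each point is a group and all genes of a group share its libraries.

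Against PTPRC, the general leucocyte gene, the groups ranked differently. MS4A1 was at 3.24%, 4.52% and 7.65% of PTPRC in Kashmiri and at 6.21%, 1.55% and 0.403% in Jersey cattle. CD79A was at 11.7%, 25.6% and 11.1% in Kashmiri and at 11.6%, 3.53% and 0.693% in Jersey cattle. Both were lowest in Jersey at D250, where the neutrophil receptor gene CSF3R, in an entry with a joined name, was at 2549 FPKM, against 53.9 to 61.6 FPKM in Kashmiri cattle. The 6 neutrophil markers summed to between 171 and 588 FPKM in Kashmiri and between 4701 and 13311 FPKM in Jersey cattle, and all 6 were past the limit, higher in Jersey, on each day, where 8.57%, 11.7% and 12.3% of all genes passed in either direction. CSF1R, a macrophage receptor gene, had 3.90, 18.9 and 31.5 FPKM in Kashmiri and 68.5, 130 and 106 FPKM in Jersey cattle. Of the 7 macrophage markers tested, 5, 5 and 2 were higher in Jersey past the limit at D15, D90 and D250. On each day these included the entry that joins ADGRE1 with VAV1, which is counted again below among genes of the receptor signal. The part of neutrophil and macrophage RNA in the lower values of the members in Jersey cattle was not tested.

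The other genes of the B cell pathway were taken from fixed lists. Of 12 co-receptor and surface genes, 10 were found, and CD40, CD53, CD72 and CD81 had the largest ratios. CD40, a receptor for T cell help that macrophages also carry, had 5.44 FPKM in Kashmiri and 159 FPKM in Jersey cattle at D90. CD72, a B cell inhibitory receptor, had 2.20 and 24.1 FPKM at D250. CD53 and CD81 encode tetraspanins of many leucocytes and, for CD81, of other cells too, and were 10.8-fold and 7.63-fold higher in Jersey at D250. These genes were higher in Jersey cattle where the 8 members were lower, and 3, 2 and 5 of the 10 genes tested were past the limit in that direction at D15, D90 and D250, with 0 lower. These counts and those of the other lists between the breeds stand against 8.57%, 11.7% and 12.3% of all genes past the limit in either direction.

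Of the 11 genes found that relay the receptor signal, 5, 5 and 4 were higher in Jersey past the limit at D15, D90 and D250. LYN, a Src family kinase of B cells and of myeloid cells, was 19.4-fold higher in Jersey cattle at D250. VAV1 and PIK3AP1 were read in entries with joined names, with ADGRE1 and TM9SF3, so that their values cannot be given to the gene alone. The entries were 65.3-fold and 16.4-fold higher in Jersey at D250.

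Among transcription factors of B cells, EBF1 was under 1 FPKM in every group, as PAX5 was. BCL6, SPI1 and BACH2 had the largest ratios, and SPI1, which also drives myeloid cells, was 14.8-fold higher in Jersey at D250. BCL6 was 15.6-fold higher in the same comparison. Of the 9 genes of the list that were tested, 1, 1 and 3 were higher in Jersey past the limit at D15, D90 and D250, and 0 lower, so that the share at D15 and D90 was near that of all genes. Without a limit, 5, 4 and 5 of the 9 were higher and 4, 5 and 4 lower in Jersey cattle. BACH2 was 8.46-fold higher at D250 than at D90 in Jersey cattle. POU2F2, which encodes the octamer factor OCT2 that works with POU2AF1, had 2.13 FPKM in Kashmiri and 6.08 FPKM in Jersey cattle at D90, an order opposite to that of POU2AF1.

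The plasma cell list held genes of both patterns. JCHAIN, which joins the units of secreted IgA and IgM, had 3.17, 11.1 and 2.93 FPKM in Kashmiri and 2.00, 0.969 and 1.79 FPKM in Jersey cattle. Like MZB1, it had its highest value in Kashmiri at D90 and its lowest in Jersey at D90, 11.4-fold below. CD27, a receptor of memory B cells, plasma cells and T cells, was 9.56-fold lower in Jersey at D90. PRDM1, the plasma cell repressor that T cells and myeloid cells also use, was 16.2-fold higher in Jersey at D250, against the direction of JCHAIN and MZB1. DERL3, an endoplasmic reticulum protein, in Jersey cattle was 6.61-fold lower late than early, at D250 over D15. Of the 10 genes found, 1 (PRDM1) was higher and 3 (CD27, JCHAIN and SSR4) lower past the limit in Jersey over Kashmiri cattle at D90, where 5.17% of all genes were lower past it. There were 0 in either direction at D15, and PRDM1 alone, higher, at D250. SSR4 had far higher levels than JCHAIN, at 2811, 1589 and 1310 FPKM in Kashmiri and 940, 369 and 728 FPKM in Jersey cattle. Its highest day in Kashmiri cattle was D15, unlike that of JCHAIN and MZB1.

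TNFRSF13C, which encodes the survival receptor for BAFF on B cells, had 1.56, 3.54 and 1.14 FPKM in Kashmiri and 11.0, 0.839 and 0.382 FPKM in Jersey cattle. Jersey at D15 was its highest group, as for BLK, and D250 was 28.7-fold lower than D15 in Jersey cattle. TNFSF13, the ligand APRIL, was read in an entry joined with TNFSF12, at 7.82 FPKM in Kashmiri and 34.8 FPKM in Jersey cattle at D15. TNFSF13B, the gene of BAFF, was not found.

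Among genes of homing and of antibody transport, CCL28, the epithelial chemokine that draws IgA plasma cells to the mammary gland, had 53.6, 4.98 and 15.4 FPKM in Kashmiri and 10.5, 0.638 and 10.8 FPKM in Jersey cattle, lowest at D90 in both breeds. PIGR, the epithelial receptor that carries IgA and IgM into milk, had 242, 43.9 and 72.2 FPKM in Kashmiri and 71.4, 4.76 and 67.3 FPKM in Jersey cattle. Both thus had D90 as the lowest day, as KRT18 did, while JCHAIN and MZB1 had D90 as the highest day in Kashmiri cattle. CCR7 and CXCR4, receptors of lymphocytes and other leucocytes, were highest at D90 in both breeds, with 102 and 114 FPKM for CCR7 and 925 and 1297 FPKM for CXCR4. CXCR5, the homing receptor of B cells to follicles, was added after its values were seen and had 0.919, 4.81 and 1.71 FPKM in Kashmiri and 0.811, 0.734 and 0.545 FPKM in Jersey cattle, with Kashmiri at D90 the highest as for 6 members. MADCAM1, an endothelial ligand, was 38.7-fold higher in Jersey at D15, from 0.127 to 4.90 FPKM, and FCGRT, the neonatal Fc receptor, was 4.76-fold higher.

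VPREB3, a gene of the B cell lineage in the same list, had 0.421, 6.18 and 2.76 FPKM in Kashmiri and 1.53, 1.24 and 0.463 FPKM in Jersey cattle. It was 14.7-fold higher at D90 than at D15 in Kashmiri cattle, past the limit there, and followed the order of days of CD79B in both breeds. Of the 14 genes of this list 6 were found, and immunoglobulin chains were represented by IGHE alone, at 0.0403 to 0.154 FPKM. Antibody transcripts as a whole could therefore not be followed.

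The genes most like each member but PAX5, which was under 1 FPKM throughout, over the 6 group values were found by Pearson r on log2(FPKM + 1), among 10418 genes with a symbol, at least 1 FPKM in a group and no value of 0. They were VOPP1, SYN2 and TROAP for CD79A (r of 0.99 each), FCMR, CHIC1 and Csnk2b-Ly6g5b for CD79B (r of 0.98, 0.98 and 0.97), and TRAM2, TPPP and SNORA26 for MS4A1 (r of 0.98, 0.97 and 0.96). For IRF4 they were PRDX6, SUGT1 and CERS5, for BLK they were THOC3, ST3GAL5 and DUSP15, for MZB1 ABHD16A, the entry joining PLEKHF1 with bta-mir-2901 and NEUROG2, and for POU2AF1 CREB3L3, SPARC and P4HA3, with r between 0.96 and 0.99. With 6 points, high values are common, and 112 genes had an r over 0.95 with CD79A. Among the members, CD79B, MS4A1 and POU2AF1 were close to each other (r of 0.93 for CD79B with MS4A1, 0.96 for CD79B with POU2AF1 and 0.96 for MS4A1 with POU2AF1). CD79A was closer to MZB1 (r of 0.92) and JCHAIN (r of 0.93) than to CD79B (r of 0.81), and IRF4 stood apart from MS4A1 (r of 0.36). These values are a description of 6 groups and carry no test.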

How the data were processed

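RNA from milk cells of Kashmiri and Jersey cattle was prepared by the authors with a stranded poly(A) kit and sequenced as paired ends. After adapter trimming (Trimmomatic), the authors mapped reads with TopHat to UMD3.1, a cattle genome build, and took expression from Cuffdiff, with Bowtie2 also named in the submitters' processing notes. The deposited values are FPKM, 1 value per group of breed and stage, in 61264 entries, of which 25121 carry a name. The columns named Local were taken as Kashmiri. The authors' FPKM include milk protein genes, several of them listed at 0, which can shift the scale between groups.

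Where a name had several entries, that of highest mean was taken. Joined names were split at commas for the look-up. Log2 ratios used a pseudocount of 1 FPKM, which understates the change of low genes, and plain folds had none. The 9 comparisons were 3 pairs of days within each breed and Jersey over Kashmiri on each day. Alternatives were a pseudocount of 0.1, a limit of 1 on the log2 scale, a minimum of 0.01 FPKM, a level of 0.1 FPKM, 2 rescalings of FPKM, summed repeated entries and other gene sets for the share.

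The text names all 9 members, up to 4 genes per B cell list with the largest log2 ratio, the reference genes CD3E, PTPRC, CSF3R, CSF1R and KRT18, and the 3 genes most like each member with at least 1 FPKM in a group, which leaves out PAX5. Some genes of the lists are not reported here. The members and lists were chosen with earlier results of these data known. The script for the limit was tested on simulated data, with large changes planted in genes well above 1 FPKM on average. Levels as low as those of most members were not covered by it. The tools were pandas 2.3.3 and numpy 2.4.6 under Python 3.11.15, with matplotlib 3.10.9 for plots.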

Additional observations from a re-analysis of the deposited data

Results flagged for a closer look

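In the 2 intervals that start at D15, 6 members reached 1 FPKM in both breeds. For 5 of them the group values moved in opposite directions in the breeds, with the same directions on all 3 scales. The share of all genes that did so is not given here, so that the count has no background. The difference was not tested, since each group has 1 value. Between D15 and D90, the log2 ratio in Jersey cattle minus that in Kashmiri cattle (pseudocount 1) was -2.87 for CD79A, -3.31 for CD79B, -2.12 for MS4A1, -0.91 for BLK and -1.68 for POU2AF1. Between D15 and D250 it was -1.55 for CD79A, -2.87 for CD79B, -2.30 for MS4A1, -1.36 for BLK and -1.69 for POU2AF1. Both intervals share the D15 values. IRF4 had a difference of -0.27 between D15 and D90, with D90 higher in both breeds. Between D90 and D250, 0 of the 5 members at 1 FPKM or more in both breeds went in opposite directions.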

How the results depend on the processing

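No paired analysis was possible because the table holds 1 value per group, and leaving out each replicate was not run for the same reason. With a pseudocount of 0.1 FPKM, the members past the limit in Kashmiri cattle numbered 4 from D15 to D90, 2 from D90 to D250 and 2 from D15 to D250, while 14.6%, 5.52% and 9.14% of all genes passed. With the same pseudocount there was 1 for D250 over D15 in Jersey cattle and 2 for Jersey over Kashmiri at D250, against 19.7% and 17.6% of all genes. Scaled to the summed FPKM without milk protein genes, the numbers were 0 from D90 to D250 and 2 from D15 to D250 in Kashmiri cattle, and 3 between the breeds at D250, where the upper quartile gave 2. Of all genes, 4.17%, 7.73% and, between the breeds, 1452 of 12101 passed, and 10.8% with the upper quartile. With an absolute log2 ratio of 1, which admits more genes by construction, the numbers from early to mid, mid to late and early to late lactation were 6, 3 and 3 in Kashmiri and 1, 1 and 4 in Jersey cattle, and those between the breeds were 1, 5 and 4 at D15, D90 and D250. At that limit 33.5%, 17.7% and 25.7% of all genes passed in Kashmiri, 29.8%, 20.9% and 42.4% in Jersey cattle, and 28.9%, 32.9% and 34.5% between the breeds, so that 1 of 6 members from D15 to D90 and 1 of 5 from D90 to D250 in Jersey cattle, and 1 of 6 between the breeds at D15, were below the share of all genes. At a level of 0.1 FPKM, all 8 members counted in Kashmiri at D15 and in Jersey at D250. As a share of CD3D, CD3E and CD3G alone, the members stood at 7.60%, 8.10% and 13.9% in Kashmiri and 20.4%, 32.0% and 23.2% in Jersey cattle. The 5 lineage members were at 5.08% and 4.83% of the T and NK markers in Jersey at D90 and D250. The cause of these changes was not tested, beyond the wider limits. Of the 72 log2 ratios of single members, 72 kept their sign with the smaller pseudocount, 63 with the rescaling to the sum and 69 with the upper quartile, and summed entries changed none. No ratio past the limit changed its direction. Read depth per group is unknown, so the precision of values under 1 FPKM could not be given.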
